A study of Homo sapiens with 6 samples.

Results

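The 10 genes described here encode basic leucine zipper (bZIP) factors of the ATF and CREB-like group other than the cAMP-responsive CREB1, CREM and ATF1 factors themselves: ATF2, ATF7 and CREB5, ATF3, ATF6 and ATF6B, CREB3 and CREB3L2, CREBL2 and CREBZF. They were chosen by name from a counts table of 18118 genes, and all 10 were among the 14571 genes that passed the filter on low counts and were tested. The table holds RNA-seq counts of 6 libraries of SU-CCS-1, an established human line of clear cell sarcoma whose cells hold the fusion EWSR1::ATF1 (EA1). Of these, 2 libraries received a negative control siRNA (labelled KD scramble control), 2 received EA1 siRNA 1 (KD EA1-1) and 2 received EA1 siRNA 2 (KD EA1-2), so that every group shares the cell line, the fusion and a transfection. The study's methods describe transfection of 5 pmol siRNA for 48 h, and name 1 siRNA against EA1 where the sample labels list 2. No label says whether the replicates were separate cultures, so the p-values measure only the spread between these libraries. The comparisons ask how the RNA levels of factors that share the bZIP fold with the DNA-binding part of the fusion stood after its knockdown.

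A bZIP factor binds DNA as a dimer, with a leucine zipper that holds the partners together and a basic region that reads the DNA, and many ATF and CREB-like factors read the cAMP response element (CRE). ATF2, ATF7 and CREB5 are activated by stress kinases of the p38 and JNK families and can pair with JUN. ATF3 is an early stress-induced factor, often a repressor. ATF6, ATF6B, CREB3 and CREB3L2 are made as membrane proteins of the endoplasmic reticulum (ER), and on stress they move to the Golgi, where the site-1 and site-2 proteases free their bZIP part. This route acts on the protein, which RNA counts do not measure. CREBL2 and CREBZF are small or atypical members of the family, and CREBZF is known as a partner of other factors rather than a strong DNA binder.

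The CRE in its full form reads TGACGTCA, and its short core reads TGACG. RefSeq promoter sequence (GRCh38.p14) was searched in the 250 bases before each annotated start, on both strands, for these motifs and for the AP1 site TGAGTCA, which JUN and FOS dimers read. Of the 10 genes, 9 had an entry, with 16 windows in all, and ATF2 had none. The full CRE was found in 1 of the 16 windows, against 1.65% of all 35116 promoter windows. The core, which every full CRE also holds, was found in 4 of the 16 windows, 1 each of ATF6, ATF7, CREB3 and CREB3L2, against 21.2% of all windows. The AP1 site was found in 1 of the 16 windows, at 1 of the starts of CREB5, against 4.2% of all windows. The stretches around the matches in ATF6, CREB3 and CREB3L2 are shown because these related membrane factors hold matches while only ATF6 was called in a comparison, with the match in capitals on either strand.
ATF6: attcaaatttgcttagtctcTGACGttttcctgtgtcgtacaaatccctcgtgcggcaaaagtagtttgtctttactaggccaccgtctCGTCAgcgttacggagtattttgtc
CREB3: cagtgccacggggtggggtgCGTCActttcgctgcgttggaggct
CREB3L2: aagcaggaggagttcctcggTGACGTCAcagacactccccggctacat

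The ATF6 stretch is chr1:161766187-161766300 on the plus strand, with cores that begin 113 and 44 bases before the RefSeq start. All distances here are counted from the RefSeq start, which for ATF6 and CREB3 lies downstream of the GENCODE gene start given with their values below. The CREB3 stretch is chr9:35732552-35732596 on the plus strand, with a core that begins 94 bases before its RefSeq start. The CREB3L2 stretch is chr7:138002238-138002285 on the minus strand, with the full CRE 179 bases before its RefSeq start. CREBL2 and ATF6B, the members that rose with both EA1 siRNAs, held none of these motifs in the windows searched. For comparison, 100 bases from within those windows are given, ending just before the GENCODE gene start, which lies upstream of the RefSeq start.
CREBL2: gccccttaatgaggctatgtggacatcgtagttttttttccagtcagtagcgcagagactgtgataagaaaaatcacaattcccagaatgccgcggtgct
ATF6B: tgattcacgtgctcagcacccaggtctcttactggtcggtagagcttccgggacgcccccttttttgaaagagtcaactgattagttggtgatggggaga

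These lie at chr12:12611727-12611826 on the plus strand for CREBL2 and at chr6:32128254-32128353 on the minus strand for ATF6B. A match is a description of letters only, and binding at these positions was not analysed here.

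The libraries held 5942808 to 7599305 counts assigned to genes. ATF1, whose transcript the fusion shares, had 82.2 and 87.4 CPM (counts scaled to normalized library size) under control siRNA, against 21.2 and 20.3 after EA1 siRNA 1 and 21.7 and 22.3 after EA1 siRNA 2 (edgeR, log2 fold change, log2FC, -2.03 and -1.94, adjusted p = 6.70e-07 and 1.05e-06). The counts do not separate the fusion from the unrearranged ATF1 allele. All fold changes are given as knockdown minus control, so that a positive value is a higher level after knockdown, and a gene was called when its adjusted p was under 0.05. Of 8 melanocyte and neural crest markers, 7 rose with each EA1 siRNA, and their summed level went from 2750 to 3010 CPM in the control libraries to 8010 to 8110 and 7393 to 11989 CPM. Of 12 markers of other cell types, 8 were not in the table, among them the defining immune, endothelial and epithelial genes PTPRC, PECAM1 and EPCAM. Of the 3 that were tested, LUM, a matrix proteoglycan gene, rose with both EA1 siRNAs (log2FC 2.64 and 3.46). The summed level of the 4 in the table was 8.23 to 9.51 CPM under control siRNA, 15.3 to 16.5 after EA1 siRNA 1 and 19.1 to 26.2 after EA1 siRNA 2. Of 15 tested interferon response genes, 12 and 14 fell in edgeR, and DESeq2 called 10 and 11 of the 15. DESeq2 called 25.4% and 22.9% of the 18118 genes in the table. For these lists, edgeR called 19.9% of all tested genes higher and 20.3% lower after EA1 siRNA 1. The edgeR shares after EA1 siRNA 2 were 18.5% and 18.2%. The part of these shifts in the values below was not tested. In bulk libraries, fewer cells that express a gene and less RNA per cell cannot be told apart.

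Among the members, 4 were higher and 1 was lower with EA1 siRNA 1, where 19.9% of all tested genes were called higher and 20.3% lower. With EA1 siRNA 2, 2 were higher and 1 was lower, against 18.5% and 18.2% of all tested genes. CREBL2 and ATF6B rose with both EA1 siRNAs, ATF2 and ATF7 were called higher with EA1 siRNA 1 and missed the threshold with EA1 siRNA 2, ATF6 fell with EA1 siRNA 1 and ATF3 fell with EA1 siRNA 2. In the test between the EA1 siRNAs, where 1.44% of all genes were called higher with EA1 siRNA 2 and 0.796% lower, ATF6 was called higher and no other member was called. Both knockdown contrasts share the control libraries, so their values stand side by side and are not independent. The median absolute log2FC of the members was 0.31 and 0.29 with EA1 siRNA 1 and 2, against 0.44 and 0.41 over all tested genes. The signed medians were 0.08 and 0.18, against 0.02 and 0.00 over all tested genes.

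**Figure D1:**
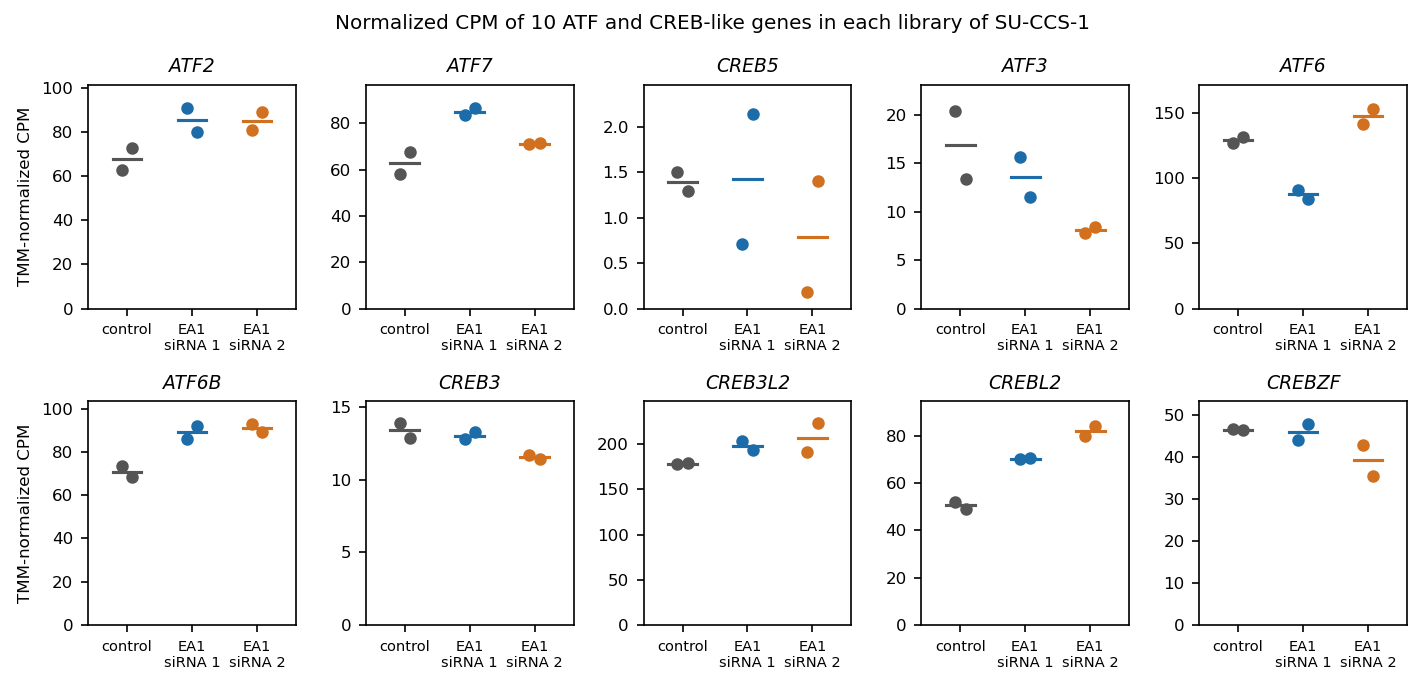
Normalized level in CPM of each of the 10 genes (1 panel each) in the 6 libraries, with 1 point per library, the groups on the x axis and a bar at each group mean. ATF6 was lowest in both EA1 siRNA 1 libraries (91.3 and 84.5 CPM), and the CREBL2 points of both knockdown groups lie above those of the control libraries.

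In the control libraries the members covered a wide range of levels per exon length (GENCODE release 44, CPM per kilobase). The length was taken over all annotated exons of a gene. Which transcripts the cells made was not determined, so the order depends on that choice. CREB3L2 was highest at a mean level of 20.2 CPM per kilobase, and its libraries overlapped those of ATF6B at 19.5. CREBL2 at 12.9 and ATF2 at 11.8 followed, and these neighbours also overlapped. ATF6 stood at 9.07 CPM per kilobase, and its control libraries did not overlap those of its neighbours in the order. CREB3 at 8.19 and ATF7 at 7.88 overlapped, followed by CREBZF at 6.13 and ATF3 at 4.22. CREB5 was far below the others at 0.119 CPM per kilobase, from 10 counts in each control library. After knockdown the levels of ATF6B were 24.5 and 25.1 CPM per kilobase with EA1 siRNA 1 and 2, and those of CREB3L2 were 22.5 and 23.5. CREBL2 stood at 17.9 and 21 CPM per kilobase in the same groups, and ATF6 at 6.16 and 10.3.

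**Figure D2:**
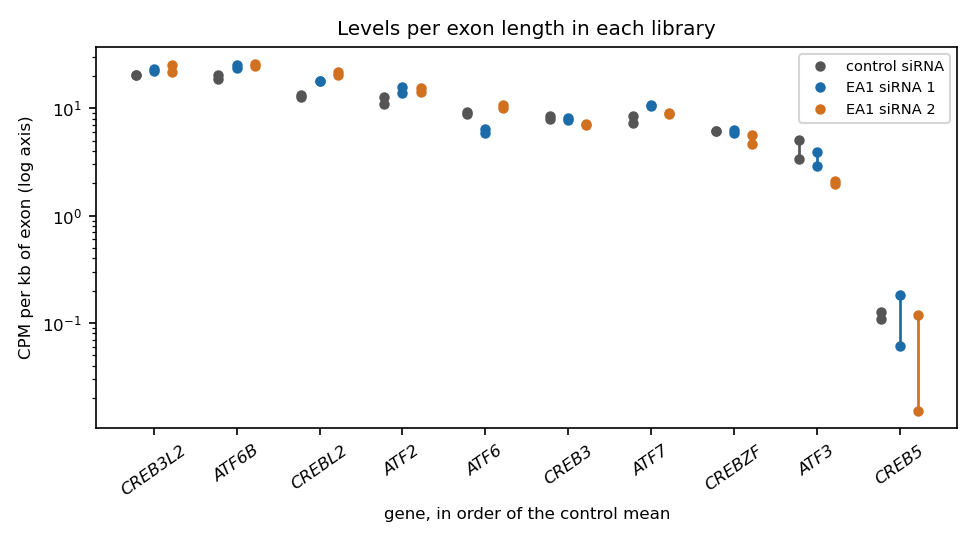
Level per exon length (CPM per kilobase, log axis) of the 10 genes in the control libraries and after each EA1 siRNA, with 1 point per library. CREB3L2 and ATF6B overlap at the top of the control order, and CREB5 (0.119 CPM per kilobase in control libraries) lies far below the other 9 genes.

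ATF6, the founding ER stress sensor of the family (ENSG00000118217, hg38 chr1:161766298-161977574), was the member on which the EA1 siRNAs differed. Its level was 127 and 132 CPM under control siRNA, 91.3 and 84.5 after EA1 siRNA 1, and then 142 and 153 after EA1 siRNA 2. The 3 groups did not overlap, and the knockdown groups lay on opposite sides of the control. ATF6 fell by 0.56 on the log2 scale with EA1 siRNA 1 (SE 0.10, fold 0.68, edgeR quasi-likelihood test, adjusted p = 0.0011). With EA1 siRNA 2 its log2FC was 0.19 (95% interval -0.03 to 0.41, edgeR adjusted p = 0.162), which did not pass the test and does not show an unchanged level. The difference between the EA1 siRNAs was 0.75 on the log2 scale (SE 0.10, fold 1.68, edgeR adjusted p = 0.00489). The fall with EA1 siRNA 1 was called in all 12 alternatives that had been set, with log2FC from -0.61 to -0.52. The difference between the EA1 siRNAs was called in 11 of the 12, and lost its call without replicate 2 of EA1 siRNA 1 (log2FC 0.69, edgeR adjusted p = 0.119).

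ATF6B (ENSG00000213676, chr6:32115264-32128253, minus strand), the paralog of ATF6 that is cleaved by the same route and is the weaker activator, moved the same way with both EA1 siRNAs. Its level was 73.3 and 68.3 CPM under control siRNA, 86.2 and 91.9 after EA1 siRNA 1, and then 92.9 and 89 after EA1 siRNA 2. Every knockdown library lay above both control libraries, and the knockdown groups overlapped each other. ATF6B rose 1.26-fold with EA1 siRNA 1 (log2FC 0.33, SE 0.10, edgeR adjusted p = 0.0249) and 1.28-fold with EA1 siRNA 2 (log2FC 0.36, SE 0.10, edgeR adjusted p = 0.0179). The difference between them was 0.03 (95% interval -0.20 to 0.26, edgeR adjusted p = 0.924). The call with EA1 siRNA 1 was lost without control replicate 1 (adjusted p = 0.0651), control replicate 2 (0.217), EA1 siRNA 1 replicate 1 (0.067) or replicate 2 (0.198) in edgeR, with log2FC between 0.25 and 0.38, and with DESeq2 (adjusted p = 0.125). The call with EA1 siRNA 2 was lost without control replicate 1 (edgeR adjusted p = 0.052), control replicate 2 (0.181) or EA1 siRNA 2 replicate 1 (0.0758), with log2FC between 0.28 and 0.42, and with DESeq2 (adjusted p = 0.08). Of the ATF6B exons, 1.96% overlap TNXB and 7.96% a long noncoding RNA on the same strand, so reads there could belong to either gene.

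Genes that the ER stress response controls were called at shares near those of all tested genes (19.9% higher and 20.3% lower after EA1 siRNA 1, 18.5% and 18.2% after EA1 siRNA 2). Of 21 tested ER stress genes of ATF6 and XBP1, 3 rose and 4 fell after EA1 siRNA 1, while 5 rose and 3 fell after EA1 siRNA 2, with medians of 0.03 and 0.16 against 0.02 and 0.00 over all tested genes. SEL1L, an adaptor of ER-associated degradation, rose by 1.30 and 1.43 (edgeR adjusted p = 3.87e-06 and 2.42e-06). PDIA4, a disulfide isomerase, rose by 1.05 and 1.24 (edgeR adjusted p = 1.02e-05 and 4.22e-06), and CALR, an ER chaperone, by 0.60 and 0.92 (edgeR adjusted p = 0.00149 and 9.78e-05). HERPUD1, which also acts in ER-associated degradation, fell with both (log2FC -0.53 and -0.52, edgeR adjusted p = 0.00915 and 0.0113). A pair of list members was added after their values were seen, for their closeness to ATF6. XBP1, the other transcription factor of this response, fell with both (log2FC -0.57 and -0.47, edgeR adjusted p = 0.0027 and 0.00942). HSPA5, the chaperone BiP and a classic ATF6 target, had 611 and 552 CPM under control siRNA, 517 and 487 after EA1 siRNA 1, and then 717 and 619 after EA1 siRNA 2. Its libraries were thus ordered by group as those of ATF6 were, but its log2FC of -0.21 and 0.20 did not pass the test (edgeR adjusted p = 0.157 and 0.19). The difference of 0.41 between the EA1 siRNAs did not pass in edgeR (adjusted p = 0.0861) and was called by DESeq2 (adjusted p = 0.0124). Between the EA1 siRNAs, 0 of the 21 genes were called by edgeR, while 6 had an unadjusted p under 0.05 and DESeq2 called 4. Over all genes tested in this contrast, edgeR called 2.24% and 17% had an unadjusted p under 0.05, and DESeq2 called 2.56% of the 18118 genes in the table.

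**Figure D3:**
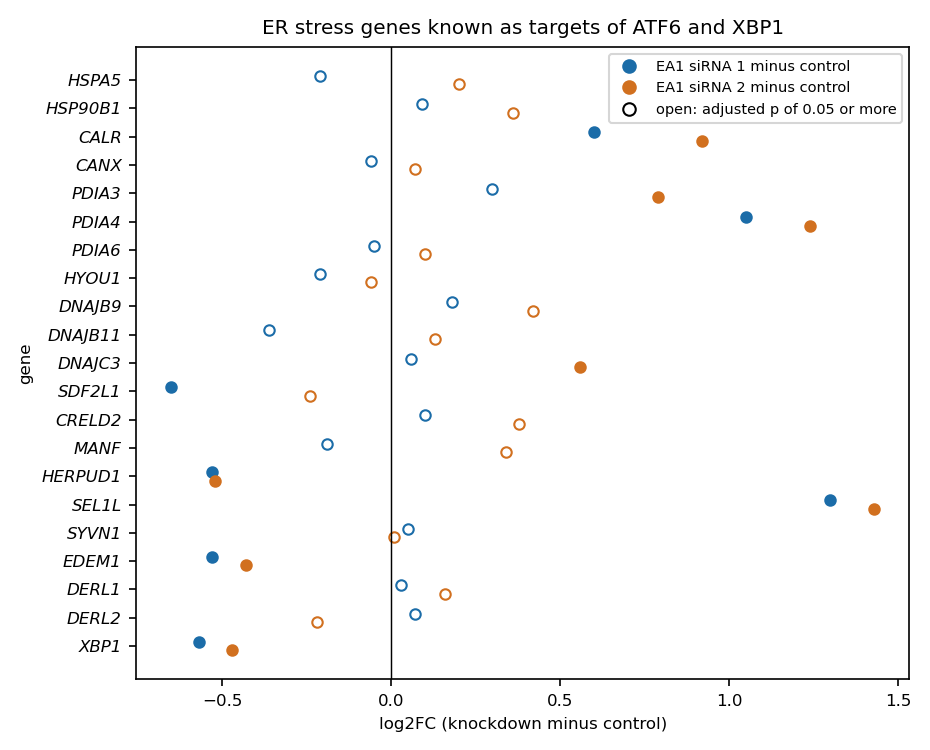
Log2FC of the tested ER stress genes of ATF6 and XBP1, with EA1 siRNA 1 and EA1 siRNA 2 as separate points against control. SEL1L and PDIA4 lie above 1 with both EA1 siRNAs, and HERPUD1 lies at -0.53 with EA1 siRNA 1 and at -0.52 with EA1 siRNA 2.

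The other members that reach the nucleus by the same protease route, CREB3L2 and CREB3, were not called with either EA1 siRNA. CREB3L2 (ENSG00000182158, chr7:137874979-138002086, minus strand), which acts in secretory cells on genes of ER-to-Golgi transport, had 178 and 179 CPM under control siRNA, 203 and 194 after EA1 siRNA 1, and then 191 and 223 after EA1 siRNA 2. All knockdown libraries lay above the controls, and the spread within EA1 siRNA 2 (SD 22.4, n = 2) was the widest of the 3 groups. Its log2FC of 0.16 (95% interval -0.07 to 0.38) and 0.22 (95% interval -0.01 to 0.45) did not pass the test (edgeR adjusted p = 0.265 and 0.13). The value with EA1 siRNA 2 was 0.07 without its replicate 2 and 0.30 without its replicate 1 (edgeR adjusted p = 0.679 and 0.0507). CREB3 (ENSG00000107175, chr9:35732598-35736999), the founding member of this subgroup, had 13.9 and 12.9 CPM under control siRNA, 12.8 and 13.3 after EA1 siRNA 1, and then 11.7 and 11.4 after EA1 siRNA 2. The EA1 siRNA 1 libraries overlapped the controls and those of EA1 siRNA 2 lay below. The log2FC of CREB3 was -0.03 (95% interval -0.48 to 0.41) and -0.21 (95% interval -0.66 to 0.24), with edgeR adjusted p = 0.912 and 0.458. Of its exon bases, 8.2% overlap GBA2 on the opposite strand, and the sources used here do not state whether counting used strand.

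Of 14 genes for cleavage and ER-to-Golgi transport, which these membrane factors need or control, 2 rose and 5 fell after EA1 siRNA 1, while 1 rose and 5 fell after EA1 siRNA 2. Over all tested genes 19.9% and 18.5% were higher, 20.3% and 18.2% lower. The medians of the list were -0.22 and -0.21, against 0.02 and 0.00 over all tested genes. MBTPS1, the site-1 protease, rose by 0.44 and 0.34 (edgeR adjusted p = 0.00777 and 0.0343). SEC24D, a cargo adaptor of COPII vesicles, fell with both (log2FC -0.54 and -0.76, edgeR adjusted p = 0.0227 and 0.00429). KDELR2, which returns ER proteins from the Golgi, fell as well (log2FC -0.54 and -0.43, edgeR adjusted p = 0.00116 and 0.00521), and SAR1A, the GTPase that starts COPII budding, did so too (log2FC -0.37 and -0.36, edgeR adjusted p = 0.0131 and 0.0171).

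CREBL2 (ENSG00000111269, chr12:12611827-12645108) encodes a small CREB-like protein linked to metabolic control. In the fit of all 6 libraries it showed the largest rise of the 10 genes with each EA1 siRNA. With EA1 siRNA 1, ATF7 was close (log2FC 0.43 against 0.47). Without control replicate 2, ATF7 (0.51) and ATF2 (0.41) lay above CREBL2 (0.40) with EA1 siRNA 1. The level of CREBL2 was 52.1 and 49.2 CPM under control siRNA, 70.1 and 70.5 after EA1 siRNA 1, and then 80.1 and 84.4 after EA1 siRNA 2. The 3 groups did not overlap. CREBL2 rose 1.39-fold with EA1 siRNA 1 (log2FC 0.47, SE 0.11, edgeR adjusted p = 0.00429) and 1.62-fold with EA1 siRNA 2 (log2FC 0.70, SE 0.11, edgeR adjusted p = 3.64e-04). The difference of 0.23 between the EA1 siRNAs did not pass the test (95% interval -0.00 to 0.46, edgeR adjusted p = 0.301). The rise with EA1 siRNA 2 was called in all 12 alternatives (log2FC 0.63 to 0.74). That with EA1 siRNA 1 was called in 11 of 12, and without control replicate 2 its log2FC was 0.40 (edgeR adjusted p = 0.0618).

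The tested genes whose pattern over the 6 libraries lay closest to CREBL2, by the distance between log2 CPM values centred on each gene's mean, were SGCB (distance 0.0733), LRRC4 (0.0984) and CNDP2 (0.112). SGCB, a sarcoglycan gene, had 37.7 and 36.1 CPM under control siRNA, 50.1 and 53.2 after EA1 siRNA 1, and then 60 and 60.5 after EA1 siRNA 2. The nearest to ATF6B were CDK17 (0.0604), SEC24B (0.0622) and ATP5MF (0.0722). CDK17, a cyclin-dependent kinase gene, had 74.8 and 71.1 CPM under control siRNA, 86.2 and 92.1 after EA1 siRNA 1, and then 94 and 92.9 after EA1 siRNA 2. These are likenesses over 6 points from shared libraries.

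ATF2 (ENSG00000115966, chr2:175072250-175168382, minus strand), the p38 and JNK substrate that pairs with JUN, had 62.9 and 72.9 CPM under control siRNA, 90.9 and 79.9 after EA1 siRNA 1, and then 80.8 and 89 after EA1 siRNA 2. Every knockdown library lay above both control libraries, and the knockdown groups overlapped. ATF2 rose 1.26-fold with EA1 siRNA 1 (log2FC 0.33, SE 0.12, edgeR adjusted p = 0.046). With EA1 siRNA 2 the value was nearly the same (log2FC 0.32, SE 0.12, 95% interval 0.06 to 0.59) and missed the threshold (edgeR adjusted p = 0.0544). The difference between the EA1 siRNAs was -0.01 (95% interval -0.27 to 0.25, edgeR adjusted p = 0.985). The call with EA1 siRNA 1 lay close to the threshold, since leaving out control replicate 1 (log2FC 0.23, edgeR adjusted p = 0.292), control replicate 2 (0.41, 0.0686), EA1 siRNA 1 replicate 1 (0.24, 0.293) or EA1 siRNA 1 replicate 2 (0.40, 0.0743) ended it. RLE size factors (edgeR adjusted p = 0.057), no filter on low counts (0.054) and DESeq2 (0.156) ended it as well. With EA1 siRNA 2, ATF2 was called in 2 of the 12 alternatives. The fit with the replicate number as a block was among them (log2FC 0.32, edgeR adjusted p = 0.0396). DESeq2 did not call ATF2 with EA1 siRNA 2 (log2FC 0.31, adjusted p = 0.164). Its log2FC with EA1 siRNA 2 was 0.37 without EA1 siRNA 2 replicate 1 and 0.40 without control replicate 2. It was 0.22 without control replicate 1, and 0.22 without EA1 siRNA 2 replicate 2.

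ATF7 (ENSG00000170653, chr12:53507856-53626410, minus strand), the close relative of ATF2, had 58.2 and 67.6 CPM under control siRNA, 83.5 and 86.5 after EA1 siRNA 1, and then 71 and 71.3 after EA1 siRNA 2. The groups did not overlap, with EA1 siRNA 2 between the others. ATF7 rose 1.35-fold with EA1 siRNA 1 (log2FC 0.43, SE 0.11, edgeR adjusted p = 0.0091), a call that was lost without control replicate 1 (log2FC 0.33, edgeR adjusted p = 0.106) or EA1 siRNA 1 replicate 2 (0.39, 0.0786). With EA1 siRNA 2 its log2FC was 0.18 (95% interval -0.07 to 0.42, edgeR adjusted p = 0.252), and 0.08 without control replicate 1 (edgeR adjusted p = 0.743). The difference of -0.26 between the EA1 siRNAs had an unadjusted p of 0.0418 and did not pass after adjustment (edgeR adjusted p = 0.272). Of the ATF7 exons, 26.8% overlap an antisense long noncoding RNA and 16.1% the readthrough gene ATF7-NPFF on the same strand, so part of its counts may belong to these genes.

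CREB5 (ENSG00000146592, chr7:28299321-28825894), the third factor of the ATF2 type, was near the limit of what these libraries can show. It had 10 and 10 counts under control siRNA, 5 and 13 after EA1 siRNA 1, and then 1 and 10 after EA1 siRNA 2, or 1.5 and 1.29, 0.711 and 2.14, and 0.178 and 1.4 CPM. The groups overlapped, and the single count of the first EA1 siRNA 2 library lies under the floor of 3 counts (0.505 CPM there). Its log2FC of 0.01 (95% interval -1.67 to 1.69) and -0.71 (95% interval -2.50 to 1.08) came with intervals this wide from few counts, so that no change was detectable at this depth (edgeR adjusted p = 0.994 and 0.538). Single libraries set these values. With EA1 siRNA 1 the log2FC was 0.62 without its replicate 1 and -0.97 without its replicate 2, and with EA1 siRNA 2 it was -0.00 without its replicate 1 and -2.87 without its replicate 2, none of them called by edgeR.

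Among the 11 tested stress kinase genes upstream of ATF2, 2 rose after EA1 siRNA 1 and 3 after EA1 siRNA 2, while none was called lower by edgeR, where 19.9% and 18.5% of all tested genes were called higher and 20.3% and 18.2% lower. DESeq2 called 1 and 3 of the 11, against 25.4% and 22.9% of the 18118 genes in the table. MAP2K6, which activates p38, rose by 0.54 and 0.90 (edgeR adjusted p = 0.00318 and 1.08e-04). MAP2K4, which activates JNK and p38, rose by 0.45 and 0.79 (edgeR adjusted p = 0.0431 and 0.00233). Of 8 tested JUN, FOS and JDP partner genes, 1 rose and 4 fell after EA1 siRNA 1, and 6 fell after EA1 siRNA 2. These counts are to be read against the same edgeR shares. Those that fell with both were FOS (log2FC -1.13 and -2.33), JUNB (-0.79 and -1.44), FOSL2 (-1.20 and -1.09) and FOSL1 (-3.34 and -3.30), the last from only 9.88 and 9.13 CPM under control siRNA. JUN, named after its values were seen because it is the partner of ATF2, had 13.6 and 10.9 CPM under control siRNA, 12.2 and 22.9 after EA1 siRNA 1, and then 4.27 and 7.02 after EA1 siRNA 2. It fell by 1.09 on the log2 scale with EA1 siRNA 2 (edgeR adjusted p = 0.0282), and its log2FC of 0.51 with EA1 siRNA 1 did not pass (edgeR adjusted p = 0.215).

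ATF3 (ENSG00000162772, chr1:212565334-212620777) had 20.4 and 13.4 CPM under control siRNA, 15.6 and 11.5 after EA1 siRNA 1, and then 7.83 and 8.42 after EA1 siRNA 2. The EA1 siRNA 1 libraries overlapped the controls, and those of EA1 siRNA 2 lay below all others. The control libraries differed by a wide margin for this gene (mean 16.9 CPM, SD 4.94, n = 2). ATF3 fell by 1.04 on the log2 scale with EA1 siRNA 2 (SE 0.27, fold 0.486, edgeR adjusted p = 0.00942), and its log2FC with EA1 siRNA 1 was -0.30 (95% interval -0.85 to 0.25, edgeR adjusted p = 0.373). The difference of -0.74 between the EA1 siRNAs did not pass the test (95% interval -1.34 to -0.15, edgeR adjusted p = 0.19), so the EA1 siRNAs are not shown to differ on it. Without control replicate 1, the library with the highest ATF3 level, the log2FC with EA1 siRNA 2 was -0.71 and lost its call (edgeR adjusted p = 0.103). With EA1 siRNA 1 it was 0.03 without control replicate 1 and -0.61 without control replicate 2, and neither was called by edgeR.

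CREBZF (ENSG00000137504, chr11:85657742-85682908, minus strand), a partner and modifier of other bZIP factors, had 46.5 and 46.4 CPM under control siRNA, 44.1 and 47.8 after EA1 siRNA 1, and then 42.9 and 35.5 after EA1 siRNA 2. The EA1 siRNA 1 libraries lay on both sides of the controls, and those of EA1 siRNA 2 lay below. Its log2FC was -0.02 (95% interval -0.31 to 0.27) and -0.25 (95% interval -0.55 to 0.05), and neither passed the test (edgeR adjusted p = 0.927 and 0.174). The value with EA1 siRNA 2 was -0.41 without its replicate 1 and -0.15 without its replicate 2 (edgeR adjusted p = 0.0619 and 0.506).

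**Figure D4:**
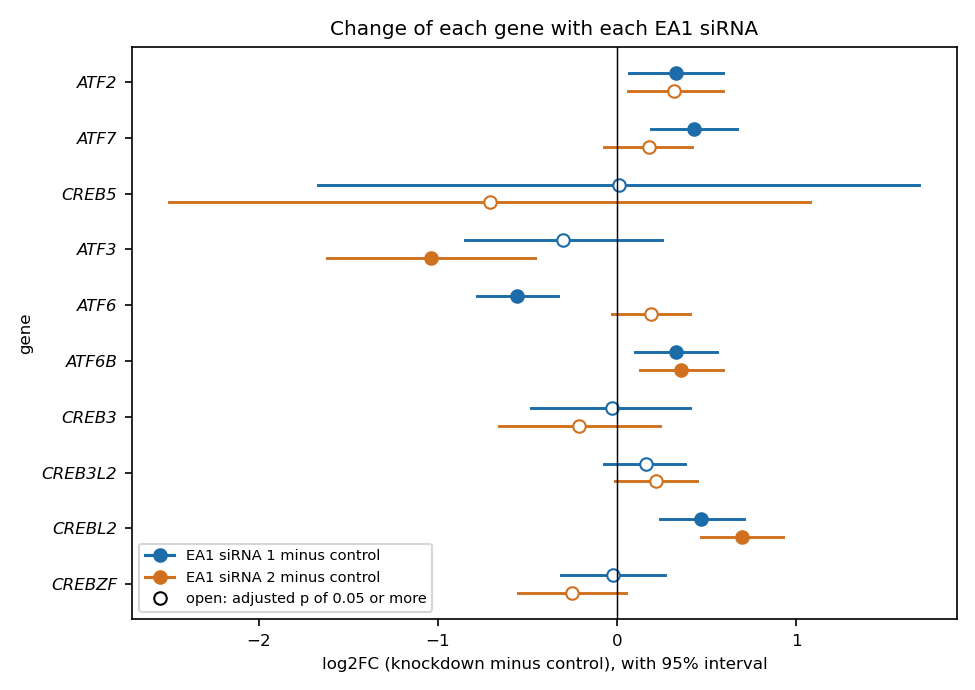
Log2FC of the 10 genes against control with EA1 siRNA 1 and EA1 siRNA 2, with 95% intervals from the edgeR fit and filled symbols for genes called at an adjusted p under 0.05. CREBL2 (0.47 and 0.70) and ATF6B (0.33 and 0.36) are filled in both, ATF6 lies on opposite sides of 0, and the intervals of CREB5 are the widest.

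Of the remaining ATF and CREB factors, listed for context, 8 were tested. Of these, 1 rose and 4 fell with each EA1 siRNA, with medians of -0.43 and -0.53, and that count includes the targeted ATF1. The shares of all tested genes were 19.9% and 18.5% higher, 20.3% and 18.2% lower. CREB1 rose by 1.34 and 1.28 (edgeR adjusted p = 3.29e-06 and 5.75e-06). CREM fell with both (log2FC -3.64 and -2.66, edgeR adjusted p = 7.95e-08 and 1.91e-07), and NFIL3, a repressor bZIP factor, did so as well (log2FC -2.90 and -3.05). Of 10 tested target genes of ATF4, a stress factor of the same fold, 3 rose and 3 fell after EA1 siRNA 1 while 4 rose and 4 fell after EA1 siRNA 2. The shares of all tested genes were 19.9% higher and 20.3% lower, then 18.5% and 18.2%. CTH was lower by both (log2FC -3.47 and -3.44) and VLDLR higher by both (log2FC 2.66 and 1.65). TRIB3 fell with both (log2FC -1.63 and -2.68), while DDIT4 rose by 1.45 and 1.15.

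With both EA1 siRNAs averaged against control in the same fit, a contrast added after the data were seen, 4 members were called higher and 1 lower, where 21.5% and 22.1% of all tested genes were called. ATF2 (log2FC 0.33, edgeR adjusted p = 0.025), ATF7 (0.30, 0.0253), ATF6B (0.35, 0.00905) and CREBL2 (0.59, 3.79e-04) were higher and ATF3 (-0.67, 0.0264) was lower. ATF6 was not called on this average (log2FC -0.18, edgeR adjusted p = 0.109), as its values with the EA1 siRNAs had opposite signs.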

How the data were processed

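Libraries were made with a TruSeq stranded mRNA kit. The authors used BWA-MEM for alignment (hg38) and featureCounts 1.6.3 for counting, and deposited raw counts of 6 libraries. The annotation, the use of strand and any filter are not given in the sources used here. Groups and replicate numbers came from the sample labels. The 6 libraries were fitted together in edgeR 4.0.16 (R 4.3.3) with filterByExpr (minimum count 10, minimum total count 15), TMM scaling and the quasi-likelihood test over 3 groups. Benjamini-Hochberg adjustment ran over 14571 of 18118 genes, and the log2 CPM behind pattern distances used a prior count of 2. The fit was tested on simulated data. Totals of 5942808 to 7599305 counts put the floor of 3 counts at 0.395 to 0.505 CPM, which covers counting error only. Alternatives were RLE factors, no filter (each gene has at least 6 counts in 1 library), at least 10 counts in every library, DESeq2 1.42.0, fits on the 4 libraries compared, a replicate block and each library left out. The mean of both EA1 siRNAs against control was added after the data were seen. Of 18118 identifiers, 18063 matched GENCODE release 44, which gave exon lengths. Promoter windows came from RefSeq (GRCh38.p14). The members and gene lists were chosen with earlier results of these data known. Named genes are the 10 members, ATF1 and EWSR1, and the 3 genes nearest to each member called with both EA1 siRNAs. In each list up to 4 genes were named, by the largest mean absolute log2FC among those called with both EA1 siRNAs in 1 direction. EWSR1, which the fusion also shares, had log2FC of -0.11 and -0.04 (adjusted p = 0.45 and 0.789). Of the interferon list the rule named ISG15, OAS2, MX2 and IFI44L, and of the melanocyte list TYR, MLANA, DCT and S100B, which are described here only by their counts. Figures were drawn with matplotlib 3.10.9 in Python 3.11.15.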

Additional observations from a re-analysis of the deposited data

Results flagged for a closer look

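The response to knockdown differed between the EA1 siRNAs, by the test of the difference itself, for ATF6 among the members and for 4 genes named beside them, or 5 of 45 genes examined in this way. Over all tested genes edgeR called 2.24% in this contrast. The 45 include JUN, HSPA5 and XBP1, named after their values were seen, and list genes picked for their log2FC with both EA1 siRNAs. Their count can therefore not be compared with that share. ATF6 was 0.75 higher on the log2 scale with EA1 siRNA 2 than with EA1 siRNA 1 (edgeR, adjusted p = 0.00489). Both libraries of EA1 siRNA 2 lay above both control libraries and both of EA1 siRNA 1 lay below them. CREM fell with both, and its level was 0.98 higher with EA1 siRNA 2 (edgeR, adjusted p = 0.00937). For VLDLR, which rose with both, the value was -1.01, lower with EA1 siRNA 2 (edgeR, adjusted p = 0.0012). FOS fell with both, and the difference was -1.20 (edgeR, adjusted p = 0.00478). The difference for JUN was -1.60 (edgeR, adjusted p = 0.0357), with 12.2 and 22.9 CPM in the EA1 siRNA 1 libraries and 4.27 and 7.02 CPM in those of EA1 siRNA 2. DESeq2 gave no adjusted p for JUN and called the other 4 (adjusted p between 1.97e-09 and 6.58e-04). HSPA5 drew attention because every library of EA1 siRNA 2 lay above the control mean and every library of EA1 siRNA 1 below it, while its difference of 0.41 did not pass the test in edgeR (adjusted p = 0.0861) and passed in DESeq2 (adjusted p = 0.0124). What sets the EA1 siRNAs apart on these genes was not tested.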

How the results depend on the processing

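Of 355 member values recomputed under the alternatives other than the averaged contrast, 315 kept their direction and their side of the threshold (3 of them uncalled with no adjusted p from DESeq2), 21 lost the call and 2 gained it, while 17 that were not called changed sign. No called value changed sign. Over all tested genes, edgeR called 40.1% with EA1 siRNA 1 and 36.7% with EA1 siRNA 2. DESeq2 called 25.4% and 22.9% of the 18118 genes in the table, a wider set than the 14571 that edgeR tested. In counts, DESeq2 called 4611 and 4150 genes, against 5850 and 5352 with edgeR. Fewer calls with DESeq2 were thus not particular to the members. With EA1 siRNA 1, the 5 members called became 3 with DESeq2 and ranged from 2 to 5 when each library was left out in turn. With EA1 siRNA 2, the 3 called became 2 with DESeq2 and ranged from 1 to 3 with a library left out, and averaging both EA1 siRNAs, added after the data were seen, gave 5. Between the EA1 siRNAs, the 1 called (ATF6) ranged from 0 to 1, with 0 in edgeR without EA1 siRNA 1 replicate 2, where 2 members had an unadjusted p under 0.05; DESeq2 was not run on that set, and over all 6 libraries it called ATF6. In edgeR over all 6 libraries, 3 of 10 members and 17% of all tested genes had an unadjusted p under 0.05 in this contrast. The share of all genes without EA1 siRNA 1 replicate 2 is not given here, so the 2 members are not shown to exceed it. With the replicate block, the counts of members called were 5, 4 and 1, and ATF2 gained a call with EA1 siRNA 2 (edgeR, adjusted p = 0.0396). Libraries of the same number deviated together only weakly across genes (r = 0.13, 0.199 and 0.144), and with 2 numbers per group the labels give no shared origin, so the block was kept as an alternative. The cause of these changes was not tested. CREB5 could not be fitted with at least 10 counts required in every library, nor on only the 4 libraries compared in the contrasts with EA1 siRNA 2. Where a library was left out, its group kept 1 library, assumed to vary like the others. Depth limits CREB5, with 1 to 13 counts a library, and the 2 replicates per group limit every interval.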
